A study of Rattus norvegicus with 9 samples.

Results

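The effect of molybdenum disulfide (MoS2) particles without light was read from 6 of the 9 libraries of the series, the 3 in which 4T1 cells were kept in medium (Control) and the 3 in which they were given the particles (MoS2). Every row of the deposited table with a gene name entered, 2390 of 2392 rows, and expression values could be recovered for 2388 of them. 4T1 is an established mouse mammary carcinoma line, grown in high glucose DMEM with 10% fetal bovine serum and penicillin with streptomycin in both groups, and polyadenylated RNA was made into libraries and sequenced on an Illumina HiSeq2000. The 3 libraries with particles and near-infrared light (MoS2_NIR) only helped to undo the standardization of the scores and to estimate the spread. The labels give neither the dose of the particles nor the time of exposure, and they name 1 cell line. Whether separate cultures stood behind the 3 libraries of a group is not said, so the p-values speak only of how far these libraries spread. The organism field of the labels says rat, whereas the cell line, the build mm10 and the gene identifiers are those of the mouse, and the genes were read as mouse genes.

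The authors put only part of the transcriptome into the table, without giving their criterion, and it holds few genes that would identify the cells. Of 9 epithelial markers for 4T1 cells only Krt14 was in it, with a summed level of 0.59 to 1.13 in Control and 0.12 to 0.19 in MoS2, so the labelled cell type could not be checked. Of 8 fibroblast markers Postn and Col1a1 were in it, with sums of 4.4 to 5.26 in Control and 2.44 to 3.5 in MoS2. None of the macrophage, T and NK cell, endothelial or adipocyte markers was among the rows. In such bulk RNA fewer cells of a kind and less RNA per cell cannot be told apart. Neither the unit of the values nor the sequencing depth is known, so no counting interval is given. Summed over the table the values came to 31710 to 35386 in Control and 32748 to 34137 in MoS2. The median value per library was 1.98, 1.91 and 1.63 in Control replicates 1 to 3 and 2.07, 1.97 and 2 in MoS2, so Control replicate 3 stood lowest. Pearson correlations across genes were 0.9798 to 0.9821 within Control, 0.9753 to 0.9811 within MoS2 and 0.9483 to 0.9535 between the groups.

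Molybdenum disulfide is a layered semiconductor that turns near-infrared light into heat, and particles of it are studied for heating tumours. Cells take up such particles mainly by endocytosis, and contact with particles can engage growth factor receptors, metal handling, antioxidant enzymes and inflammatory signalling. 4T1 cells are known for secreting granulocyte colony-stimulating factor and neutrophil chemokines and for spreading from the mammary gland to the lung. By its title the series is about low-temperature photothermal therapy, and setting MoS2 against Control asks how the particles alone act, before any light is given.

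More genes were higher than lower with MoS2. Of 1747 genes tested, 525 were called higher and 293 lower at a limma adjusted p under 0.05, which is 30.1% and 16.8% of the genes tested, or 46.8% in all. These shares and the adjusted p-values refer to the deposited selection of genes, whose rule is not stated. The rule may have used these same libraries, so neither can be carried to the whole transcriptome. Counts in the gene lists below are to be read beside these shares. Most changes were below 2-fold: the median ratio of the group means was 1.61 among genes called higher and 0.63 among genes called lower, and 76 of the former had a ratio of at least 2 and 59 of the latter a ratio of at most 0.5. The values of the groups did not overlap in 1002 tested genes (57.4%), with MoS2 above Control in 642 (36.7%) and below it in 360 (20.6%). An exact permutation test of 1 gene in 3 against 3 libraries cannot go below a p of 0.1, so single genes rest on the limma fit across all genes.

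The balance between the directions depended on how the libraries were scaled. As deposited, the median log2 fold change of the tested genes was 0.17. Under median-ratio scaling the median was 0.04, with 362 genes higher and 476 lower, and under quantile normalization it was 0.08, with 402 higher and 359 lower. Under all 3 of these scalings 350 genes were called higher (20.0%) and 270 lower (15.5%). The scalings were computed within the deposited selection of genes, so none of them can show the balance in the whole transcriptome. One more scaling, median-ratio with all 9 libraries in the reference, was added after seeing the data and gave a median of -0.09, with 162 genes higher and 569 lower. All 162 were among the 350, and all 293 genes called lower as deposited stayed called lower. No gene called in the unscaled values was called in the opposite direction under any of these scalings. Genes are called higher or lower below from the values as deposited, the loss of a call under another scaling is given beside the gene, and "the 9-library reference" stands for the added scaling.

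Direction went with expression level. Among the 551 tested genes with a mean level under 2, 17.6% were called higher and 8.71% lower. Between 5 and 20, 42.8% of 498 genes were higher and 20.3% lower. Among the 71 genes at 100 or more, 15.5% were higher and 47.9% lower, with a median log2 fold change of -0.27. Under median-ratio scaling the medians of the lowest and highest of these classes were 0.05 and -0.48, so the order remained. Predicted genes, Rik clones and pseudogenes, 329 of the tested genes, had 28 higher and 72 lower, whereas the 1418 other genes had 497 higher and 221 lower.

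**Figure D1:**
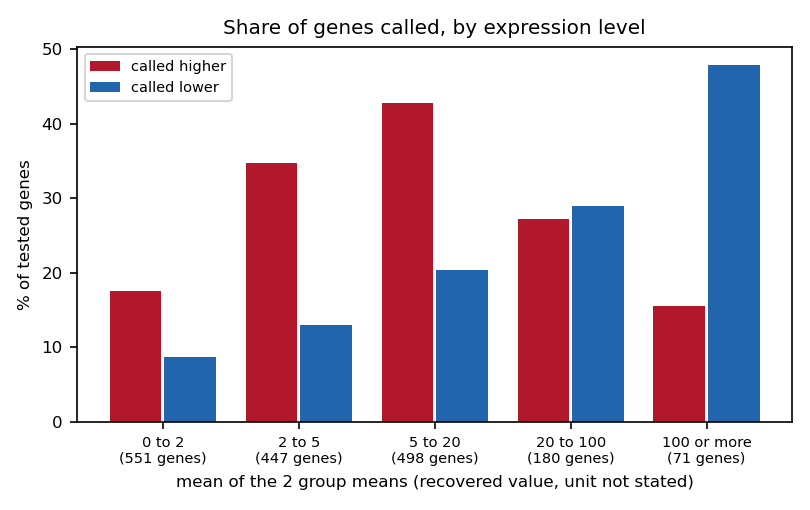
Percentage of tested genes called higher (red) or lower (blue) with MoS2, by the mean of the Control and MoS2 group means on the recovered scale, whose unit is not stated. The share called lower climbs from 8.71% in the lowest class to 47.9% in the highest, and the share called higher is greatest, 42.8%, between 5 and 20.

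**Figure D2:**
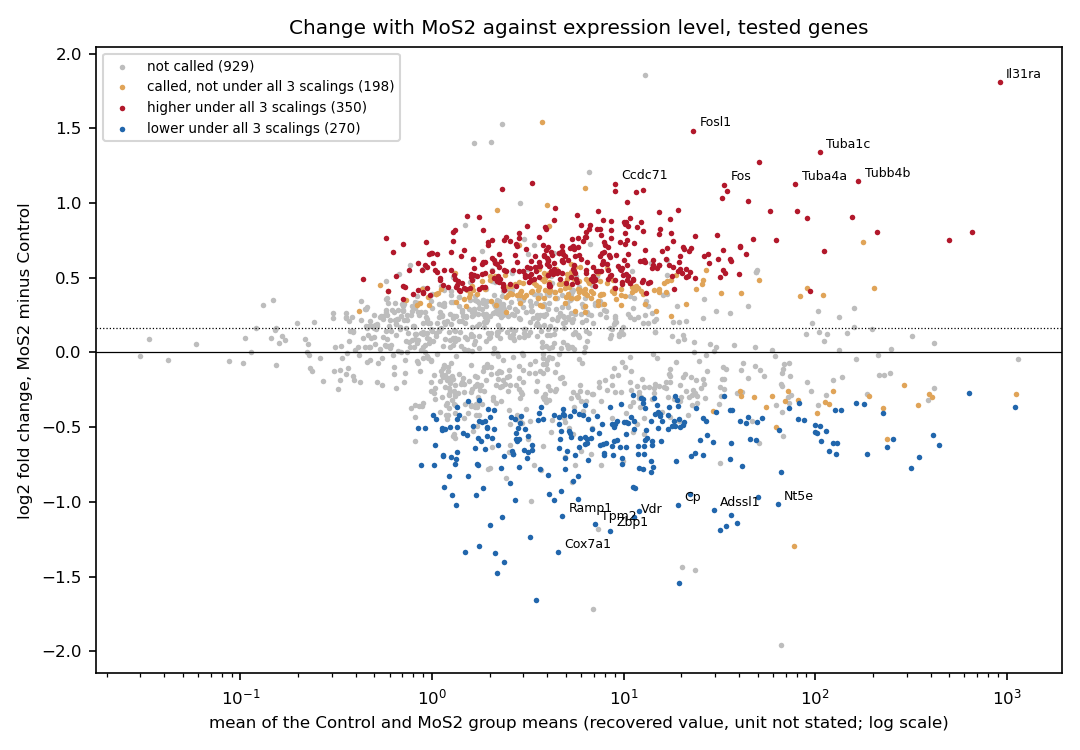
Log2 fold change of MoS2 against Control for the 1747 tested genes, by the mean of the group means on a log axis. Red and blue points are the 350 and 270 genes called under all 3 scalings, the dotted line is the median of 0.17, and the genes with the largest changes that could be labelled without overlap are named.

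The 12 largest increases among genes called under all 3 scalings, with a mean of at least 5 in 1 of the groups and predicted genes aside, included an interleukin receptor, AP-1 subunits and tubulins. Il31ra (ENSMUSG00000050377), a subunit of the interleukin-31 receptor, was at 251.01, 602.07 and 409.21 in Control and 1701.89, 1559.25 and 1005.74 in MoS2. Its 3 MoS2 values lay above the Control values although both groups spread widely, and the mean rose from 421 ± 176 to 1422 ± 368 (SD, n = 3 each; ratio 3.38, log2 fold change 1.81, SE 0.34, adjusted p = 0.00541 by limma). It was also the called gene of highest level among those that rose. Fosl1 (ENSMUSG00000024912), the gene of FRA-1, a FOS-family partner in AP-1, was at 11.73, 13.93 and 9.57 in Control and 38.82, 34.85 and 29.77 in MoS2. No MoS2 value came near the Control range, and the log2 fold change was 1.48 (SE 0.15, adjusted p = 0.000189 by limma). Fen1, a flap endonuclease of DNA replication and repair, rose from 7.74 ± 0.875 to 17.5 ± 0.441, and Zc3h12a, an RNase that degrades cytokine mRNAs, from 5.53 ± 1.58 to 12.6 ± 1.42 (adjusted p = 0.000111 and 0.00105 by limma). Oaf, a secreted protein gene named after the fly gene out at first, rose from 21.9 ± 1.44 to 47.5 ± 1.63, and the little described gene Ccdc71 from 5.26 ± 0.0436 to 12.8 ± 2.06 (adjusted p = 8.59e-05 and 0.000189 by limma). In each of these 4 the groups did not overlap.

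A pair of the largest increases lost their calls in some of the fits that left out 1 library. Fos (ENSMUSG00000021250), the classic immediate early AP-1 subunit, was at 22.19, 22.04 and 18.04 in Control and 43, 44.34 and 51.67 in MoS2. The groups lay clearly apart, but the shared fit gave a wide error (log2 fold change 1.12, SE 0.37, adjusted p = 0.0376 by limma). Its call ended on leaving out any 1 of the 6 libraries of both groups or MoS2_NIR replicate 2 (highest adjusted p = 0.0931 by limma, without MoS2 replicate 3), and with the 9-library reference. Without any 1 Control or MoS2 library its log2 fold change stayed at 1.03 to 1.17. With only the MoS2 and Control libraries fitted its limma adjusted p was 0.000576. Leaving out MoS2_NIR replicate 1 or MoS2_NIR replicate 3 gave a limma adjusted p of 0.00441 or 0.00186. Pdxp, a phosphatase of pyridoxal phosphate, went from 7.1 ± 2.44 to 16.2 ± 6.35 (adjusted p = 0.0229 by limma). Its call ended on leaving out Control replicate 3 or MoS2 replicate 3 (highest adjusted p = 0.0622 by limma, without Control replicate 3), and with the 9-library reference.

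The 12 largest decreases included secreted, cell surface and nuclear receptor genes and several enzymes. Mmp9 (ENSMUSG00000017737), a secreted protease that cuts basement membrane collagen, was at 46.85, 56.39 and 40.26 in Control and 20.18, 19.7 and 22.08 in MoS2. Every MoS2 value was below every Control value, and the ratio was 0.432 (log2 fold change -1.16, SE 0.12, adjusted p = 0.000189 by limma). Vdr (ENSMUSG00000022479), the nuclear receptor for vitamin D, was at 16.12, 16.37 and 15.06 in Control and 6.96, 6.86 and 6.76 in MoS2. Both groups were tight, with a ratio of 0.433 (log2 fold change -1.10, SE 0.15, adjusted p = 0.000562 by limma). Nt5e (ENSMUSG00000032420), the ectoenzyme CD73 that forms adenosine outside the cell, was at 90.6, 86.73 and 79.46 in Control and 43.58, 41.48 and 40.43 in MoS2. That gene fell with a log2 fold change of -1.01 (SE 0.11, adjusted p = 0.000189 by limma). Ctsw, a cathepsin best known from cytotoxic lymphocytes, was at 52.77, 49.69 and 47.15 in Control and 23.57, 23.43 and 21.72 in MoS2. The fall in Ctsw was of like size (log2 fold change -1.09, adjusted p = 0.000189 by limma). Tpm2, a tropomyosin of actin filaments, fell from 10.1 ± 1.19 to 4.07 ± 1.04, Ramp1, a partner of the receptor for calcitonin gene-related peptide, from 6.86 ± 0.592 to 2.71 ± 0.696, and Adssl1, an enzyme of purine synthesis best known in muscle, from 40.2 ± 5.13 to 18.8 ± 0.75 (adjusted p = 0.00082, 0.00176 and 0.000189 by limma). Zbp1, Cbr2, Cp and Amhr2 are described with their groups. Cox7a1, a subunit of cytochrome c oxidase, went from 6.93 ± 0.445 to 2.19 ± 0.679 (log2 fold change -1.33, adjusted p = 0.0165 by limma), and its call ended on leaving out MoS2 replicate 2 (adjusted p = 0.0567 by limma).

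**Figure D3:**
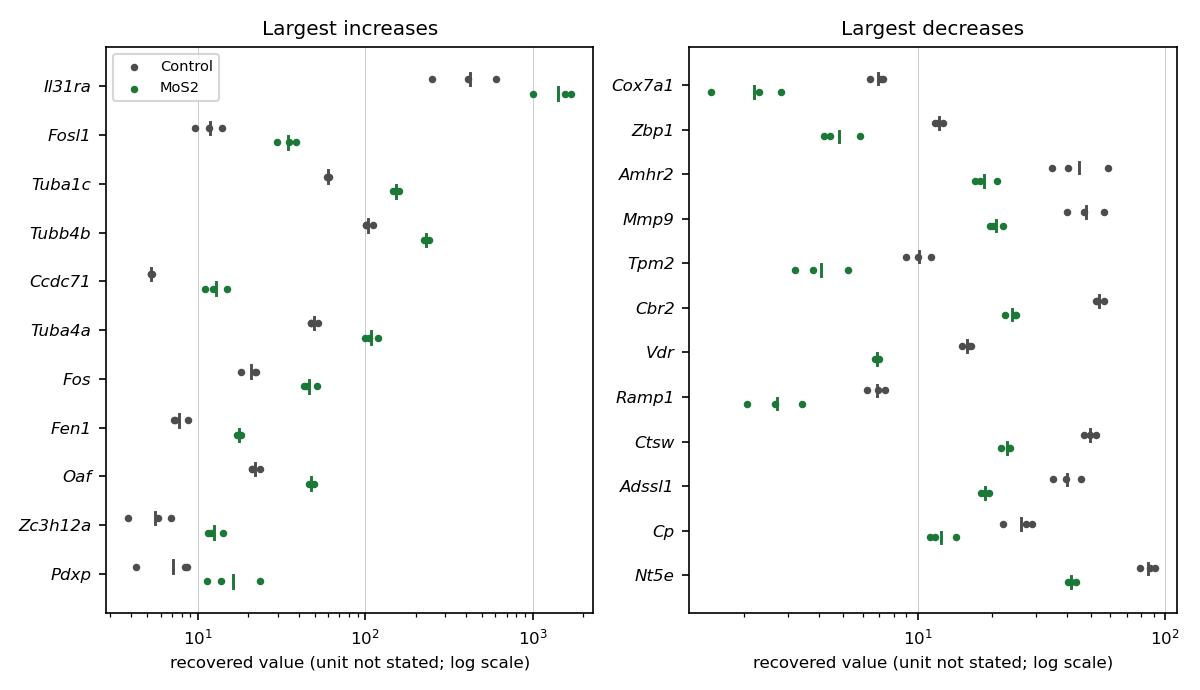
Recovered values (unit not stated, log axis) of 11 genes among the largest increases and the 12 with the largest decreases, 1 point per library, 3 Control (grey) and 3 MoS2 (green), with the group mean as a bar. No Control point overlaps the MoS2 points of the same gene; Il31ra stands at the highest level and Pdxp has the widest MoS2 spread of the increases.

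Transcription factors of the immediate early class, which are switched on by growth factor and stress signals without new protein synthesis, were more often higher than lower. The table held 13 such genes, of which 11 were tested, and 6 were higher and 1 lower. Their median log2 fold change was 0.39, beside 0.17 for all tested genes. The direction turned with the 9-library reference, with 3 higher and 4 lower, while median-ratio scaling gave 5 higher and 1 lower and quantile normalization 6 higher and 0 lower. Atf3, a stress-induced partner of AP-1 proteins, was at 5.47, 5.87 and 4.65 in Control and 10.06, 9.02 and 10.67 in MoS2. All MoS2 values exceeded all Control values, and the rise was significant (log2 fold change 0.79, SE 0.16, adjusted p = 0.00398 by limma). Egr1, a zinc finger factor downstream of ERK kinase, was low at 0.58, 0.93 and 0.73 in Control and 2.43, 1.73 and 2.74 in MoS2. The ratio of its means was 3.08 (log2 fold change 0.91, adjusted p = 0.00863 by limma), and the call ended with a pseudocount of 5. Egr1 reached 1 in the 3 MoS2 libraries and in no Control library. In this comparison it thus met the limit for testing only through the group in which it was high. Myc, which drives growth and ribosome production, went from 65.5 ± 8.7 to 53.1 ± 2.47 with groups that overlapped (log2 fold change -0.29, adjusted p = 0.044 by limma). Its call ended on leaving out Control replicate 1, Control replicate 2, MoS2 replicate 1, MoS2 replicate 2, MoS2 replicate 3 or MoS2_NIR replicate 2 (highest adjusted p = 0.136 by limma, without Control replicate 2), and under quantile normalization (0.196), without the filter, with 2 groups fitted, without trend, with the replicate block and on the scores as deposited.

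Genes listed under feedback of the ERK and receptor kinase pathway were likewise more often called higher than lower as deposited. The list was not limited to genes that damp the pathway. Of 11 tested, 7 were higher and 1 lower, with a median log2 fold change of 0.46. The counts were 5 and 1 under median-ratio scaling, 6 and 1 under quantile normalization and 2 and 1 with the 9-library reference. Etv5, an ETS transcription factor induced by ERK, was at 6.1, 8.09 and 5.71 in Control and 14.09, 14.47 and 13.99 in MoS2. Its MoS2 values were nearly equal and all above Control (ratio 2.14, log2 fold change 1.00, SE 0.12, adjusted p = 0.000356 by limma). Dusp4 (17.86, 18.89 and 14.33 in Control and 26.79, 28.58 and 28.94 in MoS2), a phosphatase of MAP kinases, rose with a log2 fold change of 0.70 (adjusted p = 0.00111 by limma). The related Dusp5 rose from 6.9 ± 0.66 to 10.3 ± 0.191 (adjusted p = 0.00273 by limma), and that call ended with the 9-library reference. Spred2, an inhibitor of RAS signalling, went from 8.59 ± 2.18 to 12.4 ± 0.534 (adjusted p = 0.0185 by limma), and its call ended on leaving out MoS2 replicate 3 (adjusted p = 0.0538 by limma), and with the 9-library reference. The lower member was Dusp28, an atypical phosphatase, at 12.7, 12.85 and 12.23 in Control and 7.42, 6.27 and 7.71 in MoS2 (log2 fold change -0.75, adjusted p = 0.00127 by limma). Epha2, an ephrin receptor kinase and the only tested member of the growth factor receptor list, was at 38.17, 38.91 and 28.25 in Control and 58.16, 59.31 and 61.02 in MoS2. It too separated the groups (log2 fold change 0.76, SE 0.12, adjusted p = 0.00131 by limma). None of the 3 tested members of the growth factor ligand list was called.

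Of 9 chemokine, colony-stimulating factor and interleukin genes tested, 3 were higher and 1 lower; the 33.3% called higher lay near the 30.1% of all tested genes. The list had a median log2 fold change of 0.24. With median-ratio scaling or the 9-library reference 3 of them were higher and 3 lower, and under quantile normalization 4 and 3. Cxcl1 was at 114.77, 103.29 and 107.78 in Control and 200.28, 197.28 and 215.22 in MoS2, and Cxcl5 at 58.81, 51.41 and 54.62 in Control and 104.71, 107.64 and 107.1 in MoS2; both encode ligands of the neutrophil receptor CXCR2. Csf3, which encodes granulocyte colony-stimulating factor, was at 64.02, 62.33 and 62.76 in Control and 114.28, 117.37 and 123.6 in MoS2. In all 3 genes the groups were well apart and the ratios were alike, at 1.88, 1.94 and 1.88 (adjusted p = 0.000506, 0.000246 and 0.000653 by limma). Ccl5, a chemokine that attracts T cells and monocytes and is also induced by interferon, was at 59.34, 54.26 and 63.99 in Control and 35.18, 40.34 and 41.64 in MoS2. It fell with a log2 fold change of -0.59 (SE 0.10, adjusted p = 0.00181 by limma).

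Of 5 cytokine receptor genes tested 2 were higher and 1 lower, with a median log2 fold change of 0.43, and leaving out single libraries left 1 to 3 higher and 0 to 1 lower. The higher ones were Il31ra, described above, and Tnfrsf21. Tnfrsf21, death receptor 6, went from 1.19 ± 0.222 to 1.95 ± 0.108 (adjusted p = 0.0224 by limma). Its call ended on leaving out Control replicate 1, Control replicate 3, MoS2 replicate 1 or MoS2 replicate 3 (highest adjusted p = 0.0654 by limma, without Control replicate 1), with a pseudocount of 5 and with the 9-library reference. Of 5 NF-kB feedback genes tested 2 were higher and 0 lower, with a median of 0.12; with the 9-library reference 1 was higher and 2 lower, and with median-ratio scaling 2 and 1. Besides Zc3h12a it was Nfkbid, a nuclear inhibitor of NF-kB, that rose from 0.447 ± 0.134 to 0.963 ± 0.0874 (log2 fold change 0.44, adjusted p = 0.0104 by limma). The call of Nfkbid ended with the 9-library reference. Nfkbid reached 1 in fewer than 3 of the 6 libraries and was tested because of the MoS2_NIR libraries. With 2 groups fitted it was not tested.

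Interferon-stimulated genes, the antiviral programme that type I and type II interferons switch on, were mostly lower with MoS2. The table held 35, of which 29 were tested, 18 were lower and 1 was higher, and the median log2 fold change was -0.40. All 18 were lower under all 3 scalings and also with the 9-library reference, and leaving out single libraries left 13 to 18. Zbp1 (ENSMUSG00000027514), which senses left-handed Z-form RNA and DNA and can trigger necroptosis, was at 11.75, 12.72 and 12.15 in Control and 4.19, 5.83 and 4.44 in MoS2. All 3 MoS2 values lay well below the Control range, and the ratio was 0.395 (log2 fold change -1.19, SE 0.17, adjusted p = 0.00074 by limma). Phf11d was at 5.69, 7.07 and 6.5 in Control and 2.4, 4.02 and 2.43 in MoS2, with MoS2 below Control in every library (log2 fold change -0.93, adjusted p = 0.00277 by limma). Ifi27l2a was at 17.59, 17.81 and 16.89 in Control and 11.34, 8.13 and 11.27 in MoS2, and Usp18, a protease that removes the ubiquitin-like protein ISG15 and damps interferon receptor signalling, was at 4.39, 2.94 and 3.12 in Control and 1.24, 1.94 and 2.22 in MoS2. Both fell without overlap of the groups (log2 fold change -0.73 and -0.68, adjusted p = 0.00193 and 0.00995 by limma). The member called higher was Cgas, the cytosolic DNA sensor, from 1.25 ± 0.246 to 2.01 ± 0.341 (adjusted p = 0.0273 by limma). That call ended on leaving out Control replicate 2, Control replicate 3 or MoS2 replicate 1 (highest adjusted p = 0.104 by limma, without MoS2 replicate 1), under median-ratio scaling (0.0713), with the 9-library reference and with a pseudocount of 5.

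Genes of MHC class I and of the proteasome that cuts its peptides were lower or not called. Of 10 tested, 5 were lower and 0 higher, with a median log2 fold change of -0.31. The number lower was 9 under median-ratio scaling, 5 under quantile normalization and 10 with the 9-library reference, and 3 were lower under all 3 scalings; leaving out single libraries left 4 to 8. Psmb8, a catalytic subunit of the immunoproteasome, was at 29.01, 27.27 and 27.37 in Control and 14.42, 18.14 and 18.36 in MoS2, and the related Psmb9 was at 5.85, 5.1 and 6.53 in Control and 3.33, 3.26 and 3.52 in MoS2. The groups were separate in both (log2 fold change -0.69 and -0.64, adjusted p = 0.0014 and 0.00237 by limma). H2-T22, a non-classical class I gene, fell from 34.5 ± 1.32 to 25.9 ± 1.1 (adjusted p = 0.00767 by limma), and since class I genes resemble each other its reads may be shared with others. Psme1, an activator of the proteasome, went from 126 ± 10.5 to 99.8 ± 4.38 (adjusted p = 0.0133 by limma), a call that ended on leaving out MoS2 replicate 2 (adjusted p = 0.0543 by limma) and under quantile normalization (0.167).

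**Figure D4:**
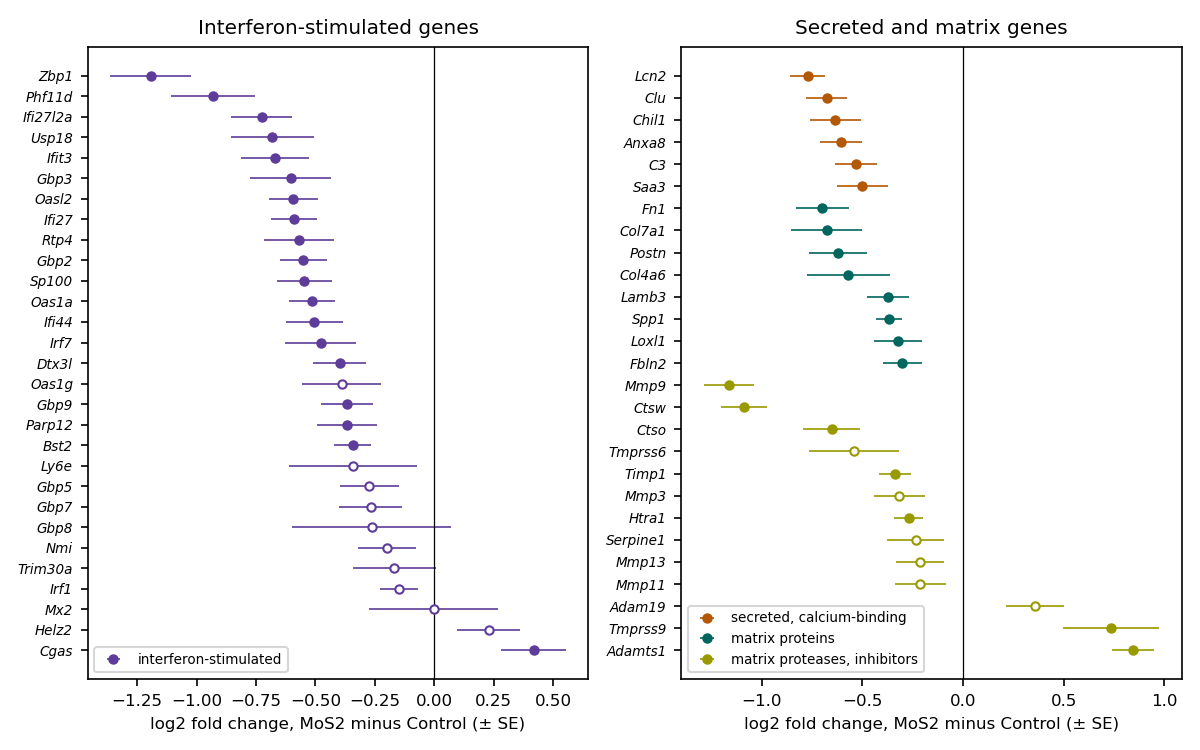
Log2 fold change of MoS2 against Control with its standard error for the tested interferon-stimulated genes (left) and the tested secreted or calcium-binding, matrix and protease genes (right). Filled points are called genes and open points genes not called. On the left 18 of 29 genes are called lower and Cgas alone is called higher. On the right all 6 tested genes of the secreted or calcium-binding list and all 8 of the matrix protein list are called lower.

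A list drawn up as S100 and calcium-binding secreted proteins, called secreted or calcium-binding here, had 8 members in the table. Of these 6 were tested, which were not S100 genes, and all 6 were lower, with a median log2 fold change of -0.62. The same 6 stayed lower under all scalings and without any single library. Lcn2 (ENSMUSG00000026822), lipocalin 2, which binds the iron carriers of bacteria, was at 394.18, 382.17 and 421.67 in Control and 224.01, 237.04 and 238.71 in MoS2. The groups were far apart, and the ratio was 0.584 (log2 fold change -0.77, SE 0.09, adjusted p = 0.00019 by limma). Clu, the extracellular chaperone clusterin, was at 159.15, 149.95 and 164.36 in Control and 99.19, 97.73 and 97.73 in MoS2, with a spread in MoS2 far below the difference (log2 fold change -0.68, adjusted p = 0.000922 by limma). Chil1, a chitinase-like protein, fell from 11.9 ± 1.04 to 7.29 ± 0.428, and Anxa8, a calcium-dependent membrane-binding annexin, from 156 ± 5.86 to 102 ± 2.05 (adjusted p = 0.00338 and 0.00168 by limma). The other members, the complement gene C3 and the serum amyloid gene Saa3, fell with log2 fold changes of -0.53 and -0.50 (adjusted p = 0.0033 and 0.00956 by limma). The list did not cover all secreted proteins: Oaf, Cxcl1, Cxcl5 and Csf3, described above, also encode secreted proteins and were called higher.

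All 8 matrix protein genes that were tested were called lower, with a median log2 fold change of -0.47, and 3 further members in the table were below the limit. The calls under all 3 scalings were 6, and leaving out single libraries left 4 to 8. Fn1 (ENSMUSG00000026193), the adhesive glycoprotein fibronectin, was at 451.56, 502.75 and 343.24 in Control and 263.26, 249.87 and 275.85 in MoS2. Control replicate 3 was the lowest of its group and still above every MoS2 value (log2 fold change -0.70, SE 0.13, adjusted p = 0.00275 by limma). Col7a1, the collagen of anchoring fibrils, was at 236.23, 248.32 and 204.65 in Control and 129.63, 128.35 and 175.05 in MoS2, with MoS2 replicate 3 nearest to Control (log2 fold change -0.68, adjusted p = 0.0115 by limma). Postn, periostin, fell from 4.23 ± 0.379 to 2.43 ± 0.613 (adjusted p = 0.00677 by limma). Col4a6, a basement membrane collagen, went from 7.16 ± 1.22 to 4.63 ± 1.71 with groups that overlapped (adjusted p = 0.0414 by limma). Its call ended on leaving out Control replicate 2, Control replicate 3, MoS2 replicate 1, MoS2 replicate 3 or MoS2_NIR replicate 1 (highest adjusted p = 0.142 by limma, without MoS2 replicate 1), with 2 groups fitted and on the deposited scores. Spp1, osteopontin, a secreted phosphoprotein of high level, was at 1243.23, 1197.83 and 1284.52 in Control and 996.24, 951.27 and 939.01 in MoS2, the highest level of any gene called lower under all 3 scalings. The fall was small beside its level but exceeded the spread (ratio 0.775, log2 fold change -0.37, SE 0.07, adjusted p = 0.0021 by limma).

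Of 13 matrix proteases and inhibitors tested, 2 were higher and 5 lower, with a median log2 fold change of -0.27. The counts were 1 and 10 under median-ratio scaling or with the 9-library reference and 2 and 7 under quantile normalization. Besides Mmp9 and Ctsw, the cysteine protease Ctso fell from 3.95 ± 0.736 to 2.12 ± 0.0709 and Timp1, an inhibitor of metalloproteases, from 183 ± 9.96 to 145 ± 7.42 (adjusted p = 0.00469 and 0.00755 by limma). Htra1, a secreted serine protease and the second in level among the genes that were lower, went from 694 ± 39.5 to 575 ± 27.4 (log2 fold change -0.27, adjusted p = 0.0118 by limma), and its call ended on leaving out MoS2 replicate 2 (adjusted p = 0.0536 by limma). Against this, Adamts1, a protease of proteoglycans, was at 6.98, 8.34 and 6.48 in Control and 14.42, 13.8 and 13.09 in MoS2. No library of either group entered the range of the other (ratio 1.9, log2 fold change 0.84, adjusted p = 0.000389 by limma). Tmprss9, a membrane serine protease, went from 134 ± 38.2 to 222 ± 51.1 (adjusted p = 0.033 by limma). That call ended on leaving out Control replicate 1, Control replicate 3, MoS2 replicate 1 or MoS2 replicate 3 (highest adjusted p = 0.0921 by limma, without MoS2 replicate 3), under median-ratio scaling (0.0992), with the 9-library reference and with 2 groups fitted.

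Of 7 integrin and adhesion genes tested 4 were lower and 0 higher, with a median log2 fold change of -0.39, but leaving out single libraries left 1 to 5; median-ratio scaling or the 9-library reference gave 6. Pkp2, a plakophilin of desmosomes, fell from 57.5 ± 3.85 to 41.4 ± 1.38 (log2 fold change -0.46, adjusted p = 0.00576 by limma). Itgb5 went from 155 ± 21.7 to 117 ± 3.75 (adjusted p = 0.0169 by limma), a call that ended on leaving out Control replicate 1, Control replicate 2 or MoS2 replicate 1 (highest adjusted p = 0.0596 by limma, without Control replicate 2). Itga2, a subunit of a collagen receptor, went from 10.9 ± 1.23 to 8.38 ± 0.655 (adjusted p = 0.0329 by limma), a call that ended on leaving out Control replicate 1, Control replicate 2, MoS2 replicate 2 or MoS2 replicate 3 (highest adjusted p = 0.105 by limma, without MoS2 replicate 3). Pkp1, from 6.4 ± 0.804 to 4.66 ± 0.79 (adjusted p = 0.045 by limma), lost its call on leaving out Control replicate 1, Control replicate 2, MoS2 replicate 1, MoS2 replicate 2 or MoS2_NIR replicate 2 (highest adjusted p = 0.166 by limma, without MoS2 replicate 2), with a pseudocount of 0.1, without the filter, with 2 groups fitted and with the replicate block. Among 4 tested keratin and epithelial regulator genes, Krt13, a keratin of stratified epithelium, fell from 2.51 ± 0.605 to 0.863 ± 0.591, and Krt80 rose from 4.25 ± 0.967 to 6.78 ± 0.505 (adjusted p = 0.00766 and 0.00956 by limma). The rise of Krt80 ended as a call with the 9-library reference. Esrp2, an epithelial splicing factor, went from 4.13 ± 0.52 to 6.45 ± 0.486 (adjusted p = 0.0143 by limma), and that call ended under quantile normalization (0.0601) and with the 9-library reference.

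Genes of TGF-beta and BMP signalling, which controls matrix production and epithelial state, were called in both directions, the receptors among them too. Of 10 tested 2 were higher and 5 lower, all of them under all 3 scalings, with a median log2 fold change of -0.36; with the 9-library reference 0 were higher and 7 lower. Ltbp2, a latent TGF-beta binding protein of the matrix, was at 92.64, 94.2 and 67.33 in Control and 46.24, 42.53 and 55.18 in MoS2, with MoS2 below Control throughout (log2 fold change -0.80, SE 0.15, adjusted p = 0.00238 by limma). Bmp7, a secreted ligand, fell from 2.9 ± 0.364 to 1.54 ± 0.207 and Fstl3, an antagonist of activin, from 76 ± 7.22 to 52.9 ± 6.3 (adjusted p = 0.00389 and 0.00728 by limma). Amhr2 (ENSMUSG00000023047), the type II receptor for anti-Müllerian hormone, went from 44.7 ± 12.5 to 18.6 ± 2.06 (log2 fold change -1.19, adjusted p = 0.0229 by limma), and its call ended on leaving out Control replicate 1, MoS2 replicate 2 or MoS2 replicate 3 (highest adjusted p = 0.0665 by limma, without Control replicate 1). The receptors Tgfbr2 and Acvr1b rose from 17.4 ± 2.95 to 24.9 ± 0.703 and from 2.34 ± 0.522 to 3.75 ± 0.405 (adjusted p = 0.00738 and 0.0121 by limma), and both calls ended with the 9-library reference. Of the 3 Wnt and Notch genes tested the ligands Wnt9a and Wnt10b were lower, from 6.46 ± 1.43 to 3.71 ± 0.818 and from 30.5 ± 4.84 to 19.8 ± 1.31 (adjusted p = 0.00944 and 0.00452 by limma). Among 4 YAP and TEAD targets tested, Nt5e fell and Tead4, the DNA-binding partner of YAP, rose from 13 ± 2.49 to 20.3 ± 0.0777 (adjusted p = 0.00397 by limma), a call that ended with the 9-library reference.

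Tubulins are the subunits of microtubules. Of 7 tubulin and microtubule motor genes tested 5 were higher, 0 lower and 2 not called, with a median log2 fold change of 0.68, and 4 were higher under all 3 scalings; the 9-library reference left 3. Tuba1c (ENSMUSG00000043091) was at 59.75, 58.88 and 60.51 in Control and 145.86, 152.83 and 159.23 in MoS2, and Tubb4b (ENSMUSG00000036752) at 100.43, 110.85 and 101.24 in Control and 223.19, 229.42 and 241.8 in MoS2. In both the increase was many times the spread within a group (log2 fold change 1.34 and 1.15, SE 0.08 and 0.08, adjusted p = 8.13e-06 and 2.91e-05 by limma). Tuba4a was at 47.32, 52.43 and 47.6 in Control and 106.06, 99.99 and 119.7 in MoS2 (adjusted p = 5.51e-05 by limma), and Tubb6 rose from 84.9 ± 1.75 to 137 ± 3.76 (adjusted p = 0.000925 by limma), though the call of Tubb6 ended with the 9-library reference. Reads of tubulin genes can be shared between close copies, so the split between them is uncertain. Of 3 actin and SRF target genes tested Tpm2 was lower, and Flnc, filamin C, went from 20.5 ± 4.6 to 27.4 ± 1.74 (adjusted p = 0.0355 by limma). The call of Flnc ended on leaving out Control replicate 3, MoS2 replicate 1, MoS2 replicate 2 or MoS2 replicate 3 (highest adjusted p = 0.0927 by limma, without MoS2 replicate 2), under median-ratio scaling (0.118), with the 9-library reference, with 2 groups fitted and on the deposited scores.

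Genes that assemble ribosomes in the nucleolus were higher as deposited in 13 of 16 tested cases and lower in none, with a median log2 fold change of 0.43. The count was 6 under median-ratio scaling and 8 under quantile normalization with 0 lower, and 3 with 1 lower with the 9-library reference. Grwd1, a histone-binding ribosome assembly protein, was at 3.61, 4.22 and 3.13 in Control and 8.52, 6.47 and 8.51 in MoS2. Every MoS2 value was above every Control value (ratio 2.14, log2 fold change 0.92, SE 0.14, adjusted p = 0.00105 by limma). Rrp9, a subunit of the U3 snoRNA particle, was at 19.39, 21.74 and 19.64 in Control and 30.17, 32.96 and 33.5 in MoS2 (adjusted p = 0.000888 by limma). Rrs1 and Pwp2, which act in large and small subunit assembly, rose from 3.68 ± 1.05 to 6.21 ± 0.797 and from 4.47 ± 0.282 to 7.44 ± 0.423 (adjusted p = 0.00858 and 0.00131 by limma), and the call of Rrs1 ended with the 9-library reference.

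DNA repair genes were higher or not called as deposited. Of 11 tested 7 were higher and 0 lower, with a median log2 fold change of 0.47, and 6 were higher under all 3 scalings; with the 9-library reference 4 were higher and 1 lower. H2ax, the histone variant that is phosphorylated beside DNA breaks, was at 22.03, 22.41 and 18.98 in Control and 40.46, 43.43 and 48.86 in MoS2. The ratio of its means was 2.09 (log2 fold change 1.03, SE 0.11, adjusted p = 0.000189 by limma). Exo1, a nuclease of mismatch repair and break resection, was at 2.52, 2.34 and 3.02 in Control and 5.43, 7.5 and 5.43 in MoS2, and Polh, a polymerase that copies past damaged bases, at 8.61, 8.73 and 7.97 in Control and 17.25, 15.9 and 15.62 in MoS2. Both lay wholly above Control (log2 fold change 0.96 and 0.87, adjusted p = 0.000653 and 0.000189 by limma). Ung, which removes uracil from DNA, rose from 2.53 ± 0.436 to 5.27 ± 0.28 (adjusted p = 0.00128 by limma).

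Of 15 cell cycle and replication genes tested 6 were higher and 2 lower, with a median log2 fold change of 0.19, close to that of all tested genes; with the 9-library reference 3 were higher and 4 lower. The repressor of E2F targets E2f8 rose from 5.03 ± 1.14 to 9.58 ± 0.752, the centromere gene Cenpl from 5.67 ± 0.45 to 10.1 ± 0.285, the origin recognition gene Orc1 from 2.98 ± 0.248 to 5.33 ± 0.41 and Gins3, a subunit of the replicative helicase, from 3.21 ± 0.0757 to 5.42 ± 0.782 (adjusted p = 0.00148, 0.000872, 0.00208 and 0.00322 by limma). The call of Gins3 ended with the 9-library reference. Both genes called lower were unsteady. Cenpm went from 33.3 ± 3.39 to 25 ± 1.00 (adjusted p = 0.015 by limma), and its call ended on leaving out Control replicate 1 or MoS2 replicate 2 (highest adjusted p = 0.06 by limma, without Control replicate 1) and under quantile normalization (0.0567). Plk2 went from 45.4 ± 5.29 to 36.8 ± 1.24 (adjusted p = 0.0339 by limma), and its call ended on leaving out Control replicate 1, Control replicate 2, MoS2 replicate 1, MoS2 replicate 2 or MoS2 replicate 3 (highest adjusted p = 0.105 by limma, without Control replicate 1), under quantile normalization (0.0566), with 2 groups fitted, with the replicate block and on the deposited scores.

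Core and linker histones other than H2ax were lower or not called. Of 12 tested 4 were lower, and H2ax alone was higher, with a median log2 fold change of -0.35; with the 9-library reference 7 were lower. H2bc8 was at 12.53, 14.1 and 19.08 in Control and 6.69, 6.6 and 9.61 in MoS2, with the highest MoS2 value below the lowest Control value (log2 fold change -0.91, SE 0.23, adjusted p = 0.0109 by limma). H2bc3 fell from 8.35 ± 0.785 to 4.74 ± 1.07 and the linker histone H1f2 from 45.1 ± 1.27 to 27.2 ± 1.43 (adjusted p = 0.00452 and 0.00576 by limma), and the call of H1f2 ended on the deposited scores. H2bc4 went from 10.9 ± 0.525 to 7.65 ± 0.389 (adjusted p = 0.0206 by limma), and its call ended on leaving out Control replicate 1 or MoS2 replicate 3 (highest adjusted p = 0.0641 by limma, without MoS2 replicate 3). Most histone mRNAs lack a poly(A) tail and their genes are close copies, so their levels in polyadenylated RNA are uncertain.

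Some genes on the stress lists were called. The chaperone and heat shock list had 9 tested members, of which 3 were higher and 0 lower, with a median log2 fold change of 0.33. The 33.3% called higher lay near the 30.1% of all tested genes. With median-ratio scaling or the 9-library reference 2 were higher and 1 lower. Hsph1, a partner of HSP70, was at 31.92, 27.05 and 29.33 in Control and 57.69, 59.34 and 63.55 in MoS2. Its ratio was 2.04 (log2 fold change 1.01, adjusted p = 0.000281 by limma). Hspb8, of the small heat shock proteins, rose from 28.5 ± 1.17 to 44 ± 1.14 (adjusted p = 0.000571 by limma), and Cryab went from 10 ± 0.708 to 13.9 ± 2.04 (adjusted p = 0.0168 by limma). The call of Cryab ended on leaving out Control replicate 1 or MoS2 replicate 3 (highest adjusted p = 0.0661 by limma, without MoS2 replicate 3), under median-ratio scaling (0.16), under quantile normalization (0.0537) and with the 9-library reference. Of 9 genes of the ATF4 and amino acid response 4 were higher and 0 lower, with a median of 0.20; median-ratio scaling left 2 higher, and with the 9-library reference 1 was higher and 4 lower. Sesn2, a leucine sensor and stress protein, rose from 2.69 ± 0.121 to 4.52 ± 0.432, and Xpot, the exporter of transfer RNA, from 32.7 ± 2.65 to 47.5 ± 3.58 (adjusted p = 0.00227 and 0.00244 by limma); the call of Xpot ended with the 9-library reference. The calls of the other members, Stc2 (log2 fold change 0.46, adjusted p = 0.0488 by limma) and Slc6a9 (0.40, adjusted p = 0.0374 by limma), ended under all 3 other scalings and on the deposited scores. The call of Stc2 also ended on leaving out any 1 of the 6 libraries of both groups or MoS2_NIR replicate 2 (highest adjusted p = 0.129 by limma, without MoS2 replicate 1), with a pseudocount of 5, without the filter and without trend, and that of Slc6a9 on leaving out Control replicate 1, Control replicate 3, MoS2 replicate 1, MoS2 replicate 2 or MoS2 replicate 3 (highest adjusted p = 0.107 by limma, without Control replicate 3).

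Antioxidant and detoxifying genes changed in both directions. Of 10 tested 4 were higher and 4 lower under all 3 scalings, with a median log2 fold change of -0.09; with the 9-library reference 2 were higher and 4 lower. Leaving out any single library left 4 higher but 2 to 3 lower. Txnrd1, thioredoxin reductase, was at 42.98, 44.9 and 31.53 in Control and 81.4, 78.31 and 70.93 in MoS2, and Gsta1, a glutathione transferase, was at 10.37, 12.58 and 12.67 in Control and 22.89, 22.36 and 23.34 in MoS2. Both sat above Control in every MoS2 library (log2 fold change 0.95 and 0.90, adjusted p = 0.000562 and 0.000833 by limma). The NRF2 targets Osgin1 and Srxn1 rose with log2 fold changes of 0.62 and 0.57 (adjusted p = 0.00208 and 0.00372 by limma), and both calls ended with the 9-library reference. On the other side Cbr2 (ENSMUSG00000025150), a carbonyl reductase, was at 53.12, 52.76 and 56.51 in Control and 22.47, 24.89 and 24.82 in MoS2. Its fall was many times the spread (ratio 0.445, log2 fold change -1.14, SE 0.09, adjusted p = 3.34e-05 by limma). The glutathione transferase Gstm5 fell from 18.5 ± 0.795 to 13.2 ± 0.36 and Sod3, the extracellular superoxide dismutase, from 1.3 ± 0.178 to 0.717 ± 0.0651 (adjusted p = 0.00503 and 0.0102 by limma). Sod3 reached 1 in the 3 Control libraries and in no MoS2 library, so it entered the test through the group in which it was high, and without any 1 Control library it was not tested. Gstm1 went from 12.3 ± 1.25 to 9.93 ± 0.42 (adjusted p = 0.0468 by limma), and its call ended on leaving out Control replicate 2, Control replicate 3, MoS2 replicate 1, MoS2 replicate 2, MoS2 replicate 3, MoS2_NIR replicate 1, MoS2_NIR replicate 2 or MoS2_NIR replicate 3 (highest adjusted p = 0.135 by limma, without Control replicate 2), with a pseudocount of 0.1, without the filter, with 2 groups fitted and with the replicate block.

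Metal-handling genes were few. Of 4 tested, Cp and Lcn2 were lower and Slc30a1 was called higher. Cp, ceruloplasmin, a copper enzyme that oxidizes iron, was at 27.51, 29 and 22.18 in Control and 11.71, 14.33 and 11.19 in MoS2. Its highest MoS2 value was below its lowest Control value (ratio 0.473, log2 fold change -1.02, SE 0.14, adjusted p = 0.000623 by limma). Slc30a1, a zinc exporter, went from 0.753 ± 0.0513 to 1.18 ± 0.0529 (adjusted p = 0.0406 by limma), and its call ended on leaving out Control replicate 1, Control replicate 2, MoS2 replicate 1, MoS2 replicate 2, MoS2 replicate 3, MoS2_NIR replicate 2 or MoS2_NIR replicate 3 (highest adjusted p = 0.106 by limma, without MoS2 replicate 2), with a pseudocount of 5, under all 3 other scalings, with 2 groups fitted, with the replicate block and on the deposited scores. Like Egr1, Slc30a1 reached 1 in the 3 MoS2 libraries and in no Control library. In this comparison it met the limit for testing only through the group in which it was high. Mtf1, the metal-sensing transcription factor, was 6.24 ± 1.33 in Control and 6.92 ± 1.49 in MoS2 (adjusted p = 0.524 by limma). The table also held 3 genes of molybdenum use, the element of the particles. Mfsd5, a molybdate transporter, was at 5.78, 6.06 and 5.44 in Control and 8.69, 7.67 and 9.07 in MoS2, above Control in every library (log2 fold change 0.49, SE 0.10, adjusted p = 0.00495 by limma). Its call ended with the 9-library reference. Suox, sulfite oxidase, a molybdenum enzyme, went from 2.03 ± 0.182 to 2.95 ± 0.24 (adjusted p = 0.0168 by limma), a call that ended on leaving out MoS2 replicate 1 or MoS2 replicate 3 (highest adjusted p = 0.0581 by limma, without MoS2 replicate 3), under median-ratio scaling (0.0511) and with the 9-library reference. Mocs3, which takes part in making the molybdenum cofactor, was 0.63 ± 0.173 in Control and 1.00 ± 0.185 in MoS2 (adjusted p = 0.0948 by limma).

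Genes of particle uptake and degradation showed mixed changes. Of 6 endocytosis genes tested 3 were higher and 0 lower, with a median log2 fold change of 0.42, and 1 was higher with the 9-library reference. The endocytic adaptor gene Epn3 rose from 2.48 ± 0.233 to 4.45 ± 0.356 (adjusted p = 0.00597 by limma), a call that ended with the 9-library reference. Snx19, a sorting nexin, went from 2.35 ± 0.141 to 3.46 ± 0.564 (adjusted p = 0.0285 by limma), and its call ended on leaving out Control replicate 1, Control replicate 3, MoS2 replicate 1 or MoS2 replicate 3 (highest adjusted p = 0.0996 by limma, without MoS2 replicate 1), under median-ratio scaling (0.0893), under quantile normalization (0.0623) and with the 9-library reference. Of 4 autophagy and lysosome genes tested, Map1lc3b, whose protein LC3B coats autophagosomes, was at 146.15, 144.25 and 141.3 in Control and 89.17, 86.33 and 96.94 in MoS2. It fell in a narrow spread (ratio 0.631, log2 fold change -0.66, SE 0.08, adjusted p = 0.000432 by limma). The LC3 protease Atg4d and the proton pump subunit Atp6v0a2 rose from 8.1 ± 1.16 to 11.6 ± 1.39 and from 1.83 ± 0.163 to 2.83 ± 0.215 (adjusted p = 0.0114 and 0.00986 by limma), and both calls ended with the 9-library reference. The fourth, Rragd, was 21.9 ± 9.25 in Control and 17.8 ± 8.51 in MoS2 (adjusted p = 0.522 by limma). Acaca, the acetyl-CoA carboxylase of fatty acid synthesis, was 22.2 ± 3.68 in Control and 17.4 ± 0.558 in MoS2 (adjusted p = 0.0556 by limma).

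Targets of p53 were called in both directions. Of 12 p53 targets tested 4 were higher and 3 lower, with a median log2 fold change of 0.11. The 33.3% called higher lay near the 30.1% of all tested genes. Median-ratio scaling gave 4 and 4, quantile normalization 5 and 2 and the 9-library reference 3 and 5. Tigar, a regulator of glycolysis, rose from 0.647 ± 0.221 to 1.94 ± 0.803, and Aen, a nuclease, from 4.17 ± 0.0569 to 7.41 ± 0.317 (adjusted p = 0.00861 and 0.000574 by limma). Like Egr1, Tigar reached 1 in the 3 MoS2 libraries and in no Control library. In this comparison it met the limit for testing only through the group in which it was high. Sesn2 and Plk3 were the other members called higher (limma adjusted p of Plk3 = 0.00948), and the call of Plk3 ended with the 9-library reference and on the deposited scores. Gadd45a, a stress protein that slows the cell cycle, fell from 116 ± 13.2 to 82.8 ± 6.93 (adjusted p = 0.00592 by limma), and Fas and Plk2 were called lower with less support. Fas, a death receptor, went from 27 ± 0.954 to 20.7 ± 1.29 (adjusted p = 0.0313 by limma), and its call ended on leaving out Control replicate 1, Control replicate 2, MoS2 replicate 1 or MoS2 replicate 2 (highest adjusted p = 0.102 by limma, without MoS2 replicate 1) and on the deposited scores. Of 10 genes of apoptosis, necroptosis and pyroptosis 1 was higher and 4 lower, with a median of -0.15. None was higher under the other scalings, and 5, 4 and 7 were lower under median-ratio scaling, quantile normalization and the 9-library reference; leaving out single libraries left 2 to 4 lower. Besides Zbp1 and Fas, Bcl2l11, the BH3-only killer BIM, fell from 31.5 ± 3.58 to 22.6 ± 1.3 (adjusted p = 0.00692 by limma). Casp12 went from 6.16 ± 0.786 to 4.31 ± 0.0889 (adjusted p = 0.0495 by limma), and its call ended on leaving out Control replicate 1, Control replicate 3, MoS2 replicate 1, MoS2 replicate 2, MoS2 replicate 3 or MoS2_NIR replicate 2 (highest adjusted p = 0.143 by limma, without Control replicate 1), with a pseudocount of 0.1, without the filter, with the replicate block and on the deposited scores. Tradd, an adaptor of the TNF receptor, went from 4.27 ± 1.43 to 6.37 ± 0.146 (adjusted p = 0.0331 by limma), and its call ended on leaving out MoS2 replicate 1, MoS2 replicate 2 or MoS2 replicate 3 (highest adjusted p = 0.0757 by limma, without MoS2 replicate 3), under median-ratio scaling (0.0619), under quantile normalization (0.0832), with the 9-library reference, with 2 groups fitted and on the deposited scores.

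Clock genes moved in both directions. Of 8 tested 3 were higher and 3 lower, with a median log2 fold change of -0.06, with quantile normalization 4 were higher and 2 lower, and with the 9-library reference 1 was higher and 5 lower. Per2 and Cry1, repressors of the clock, rose from 1.16 ± 0.384 to 2.16 ± 0.10 and from 3.52 ± 0.788 to 5.48 ± 0.523 (adjusted p = 0.00775 and 0.00997 by limma), and the call of Cry1 ended with the 9-library reference. Cry2 went from 2.54 ± 0.628 to 3.85 ± 0.231 (adjusted p = 0.0197 by limma), and its call ended on leaving out MoS2 replicate 1 (adjusted p = 0.0619 by limma) and with the 9-library reference. The repressor Per1, by contrast, was at 142.89, 154.07 and 109.8 in Control and 88.48, 88.68 and 101.56 in MoS2. It fell (log2 fold change -0.53, adjusted p = 0.0134 by limma). Nr1d1, the receptor REV-ERB alpha, went from 285 ± 48.9 to 189 ± 16.1 (adjusted p = 0.0137 by limma), a call that ended under quantile normalization (0.0997) and on the deposited scores. The time of day at harvest is not in the labels. Of 6 glucocorticoid targets tested 3 were lower and 0 higher, with a median of -0.25 (5 lower with the 9-library reference): Lcn2, Per1 and Hsd11b1, which makes active glucocorticoid. Hsd11b1 went from 7.14 ± 0.737 to 5.09 ± 0.605 (adjusted p = 0.0337 by limma), and its call ended on leaving out Control replicate 1, Control replicate 3, MoS2 replicate 2 or MoS2 replicate 3 (highest adjusted p = 0.108 by limma, without MoS2 replicate 3) and with the replicate block. Of 5 FOXO and low growth genes 2 were lower and 0 higher, with a median of -0.11. They were Bcl2l11 and Pik3ip1, an inhibitor of PI3 kinase, which went from 16.1 ± 3.91 to 9.53 ± 1.17 (adjusted p = 0.0172 by limma), a call that ended on leaving out Control replicate 2 or MoS2 replicate 2 (highest adjusted p = 0.0591 by limma, without Control replicate 2).

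Mitochondrially encoded transcripts were few in the table, and both protein-coding ones rose. mt-Nd1 and mt-Nd2, subunits of complex I, were at 468.51, 459.68 and 504.51 in Control and 801.31, 893.28 and 809.56 in MoS2 and at 362.5, 359.71 and 388.52 in Control and 599.63, 646.05 and 625.93 in MoS2. They ranked next to Il31ra in level among genes that rose, and the groups did not overlap (log2 fold change 0.80 and 0.75, SE 0.07 and 0.08, adjusted p = 8.59e-05 and 0.000189 by limma). The ribosomal RNA mt-Rnr1 was 214 ± 14.3 in Control and 212 ± 11 in MoS2 (adjusted p = 0.902 by limma), but it was called lower with the 9-library reference. Of 4 nuclear genes of oxidative phosphorylation Cox7a1 was lower, and Ndufaf1, an assembly factor of complex I, rose from 6.06 ± 1.65 to 9.64 ± 0.927 (adjusted p = 0.00892 by limma), a call that ended with the 9-library reference. Of 3 genes of glycolysis and hypoxia, Egln3, an oxygen-sensing hydroxylase, rose from 46.2 ± 4.36 to 78.3 ± 4.37 (adjusted p = 0.00074 by limma). Pfkfb3, an activator of glycolysis, went from 21.2 ± 5.4 to 14.5 ± 0.863 with groups that overlapped (adjusted p = 0.0315 by limma), and its call ended on leaving out Control replicate 1, Control replicate 2, MoS2 replicate 1, MoS2 replicate 2 or MoS2 replicate 3 (highest adjusted p = 0.106 by limma, without Control replicate 1) and on the deposited scores.

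Among 12 noncoding RNAs and host transcripts tested 2 were higher and 2 lower, with a median log2 fold change of 0.18; with the 9-library reference 0 were higher and 4 lower. Neat1 (ENSMUSG00000092274), the RNA that scaffolds nuclear paraspeckles, was at 561.62, 579.94 and 472.29 in Control and 341.3, 313.06 and 398.45 in MoS2. It was the third in level among the genes lower under all 3 scalings (log2 fold change -0.62, SE 0.12, adjusted p = 0.00319 by limma). Snhg16, a host of small nucleolar RNAs, fell from 12.1 ± 1.27 to 8.51 ± 1.26 (adjusted p = 0.0113 by limma). Neither of the higher ones was steady. Snhg17 went from 12.2 ± 1.55 to 16.6 ± 1.25 (adjusted p = 0.0166 by limma), and its call ended on leaving out Control replicate 1 or MoS2 replicate 3 (highest adjusted p = 0.065 by limma, without Control replicate 1), under median-ratio scaling (0.159) and with the 9-library reference. Rmrp, the RNA of a processing ribonuclease, went from 1.47 ± 0.742 to 6.06 ± 1.25 (adjusted p = 0.0484 by limma), and its call ended on leaving out any 1 of the 6 libraries of both groups or MoS2_NIR replicate 3 (highest adjusted p = 0.118 by limma, without MoS2 replicate 1), with a pseudocount of 5, under quantile normalization (0.0573), with the 9-library reference and with the replicate block. The libraries were made from polyadenylated RNA, so the level of a structured RNA such as Rmrp is uncertain. How strand was treated in counting is not given, so reads of overlapping antisense genes cannot be told apart.

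Of 39 solute carrier genes tested 9 were higher and 3 lower, with a median log2 fold change of 0.24. The 23.1% called higher lay below the 30.1% of all tested genes. With the 9-library reference 3 were higher and 7 lower. The largest rise was in Slc9a3r1, whose product is a membrane scaffold and not a carrier, at 12.49, 13.81 and 11.83 in Control and 22.46, 21.97 and 23.9 in MoS2. The groups did not overlap (log2 fold change 0.80, adjusted p = 0.000252 by limma). Slc16a13, a monocarboxylate carrier family member, rose from 6.12 ± 1.27 to 11.1 ± 1.72 and Slc35f6 from 7.71 ± 0.371 to 12 ± 1.84 (adjusted p = 0.00527 and 0.00338 by limma), and the call of Slc35f6 ended with the 9-library reference. Slc1a5, a glutamine carrier, went from 17.1 ± 5.47 to 26.9 ± 1.34 (adjusted p = 0.0283 by limma), and its call ended on leaving out MoS2 replicate 1, MoS2 replicate 2 or MoS2 replicate 3 (highest adjusted p = 0.073 by limma, without MoS2 replicate 3) and with the 9-library reference. The amino acid carriers Slc43a2 and Slc7a7 fell from 9.6 ± 1.21 to 5.93 ± 0.574 and from 2.43 ± 0.287 to 1.42 ± 0.267 (adjusted p = 0.00305 and 0.00944 by limma). Slc44a1, a choline carrier, went from 40.9 ± 6.1 to 30.8 ± 1.22 (adjusted p = 0.0197 by limma), and its call ended on leaving out Control replicate 1, Control replicate 2, MoS2 replicate 2 or MoS2 replicate 3 (highest adjusted p = 0.0733 by limma, without Control replicate 1). Of 8 ABC transporters and channels 1 was higher and 2 lower, with a median of -0.24; the 9-library reference gave 1 and 4. Kcnk5, a potassium channel, rose from 0.903 ± 0.29 to 2.6 ± 0.733, and Abcc5, an exporter of cyclic nucleotides, fell from 21.5 ± 3.28 to 15.3 ± 1.01 (adjusted p = 0.00318 and 0.00997 by limma). Abcb1a, a P-glycoprotein, went from 2.51 ± 0.287 to 1.68 ± 0.176 (adjusted p = 0.0304 by limma), and its call ended on leaving out Control replicate 1, Control replicate 2, MoS2 replicate 1 or MoS2 replicate 2 (highest adjusted p = 0.098 by limma, without MoS2 replicate 1).

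Of 28 genes of ubiquitin ligase families 13 were higher and 2 lower, with a median log2 fold change of 0.36, and 10 and 2 were so under all 3 scalings; with the 9-library reference 3 were higher and 5 lower. The substrate adaptors Asb8, Klhl25 and Fbxo28 rose from 4.52 ± 0.763 to 8.72 ± 0.484, from 4.03 ± 1.11 to 7.01 ± 0.405 and from 9.77 ± 1.76 to 16.2 ± 1.56 (adjusted p = 0.000748, 0.00483 and 0.00237 by limma), and Trim45 rose from 1.07 ± 0.201 to 2.2 ± 0.426 (adjusted p = 0.00435 by limma). The call of Fbxo28 ended with the 9-library reference. Klhl30 fell from 7.96 ± 1.52 to 4.95 ± 0.592 (adjusted p = 0.00944 by limma). Of 67 zinc finger genes with Zfp names 17 were higher and 0 lower, with a median of 0.27. The 25.4% called higher lay below the 30.1% of all tested genes. Median-ratio scaling gave 10 and 4, quantile normalization 13 and 3, and the 9-library reference 0 and 6. The largest rises among those called under all 3 scalings were Zfp513, from 5.73 ± 1.23 to 9.62 ± 1.64, and Zfp623, from 7.57 ± 0.272 to 11.7 ± 1.44 (adjusted p = 0.00788 and 0.00283 by limma), and both calls ended with the 9-library reference. Of 11 G protein-coupled receptors and regulators 3 were lower and 0 higher, with a median of 0.16, and leaving out single libraries left 1 to 3 lower. Adgrg1, an adhesion receptor that binds collagen, was at 1.74, 1.84 and 1.83 in Control and 0.55, 0.33 and 0.64 in MoS2 (ratio 0.281, log2 fold change -0.90, adjusted p = 0.000521 by limma). Like Sod3 it reached 1 in the 3 Control libraries and in no MoS2 library, so it entered the test through the group in which it was high, and without any 1 Control library it was not tested. F2r, a thrombin receptor, and Gng2, a G protein subunit, went from 92.4 ± 6.91 to 72.7 ± 3.29 and from 132 ± 13.2 to 104 ± 7.78 (adjusted p = 0.0123 and 0.0144 by limma). The call of F2r ended on leaving out Control replicate 1 (adjusted p = 0.0512 by limma), and that of Gng2 on leaving out MoS2 replicate 3 (adjusted p = 0.0552 by limma) and under quantile normalization (0.18).

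**Figure D5:**
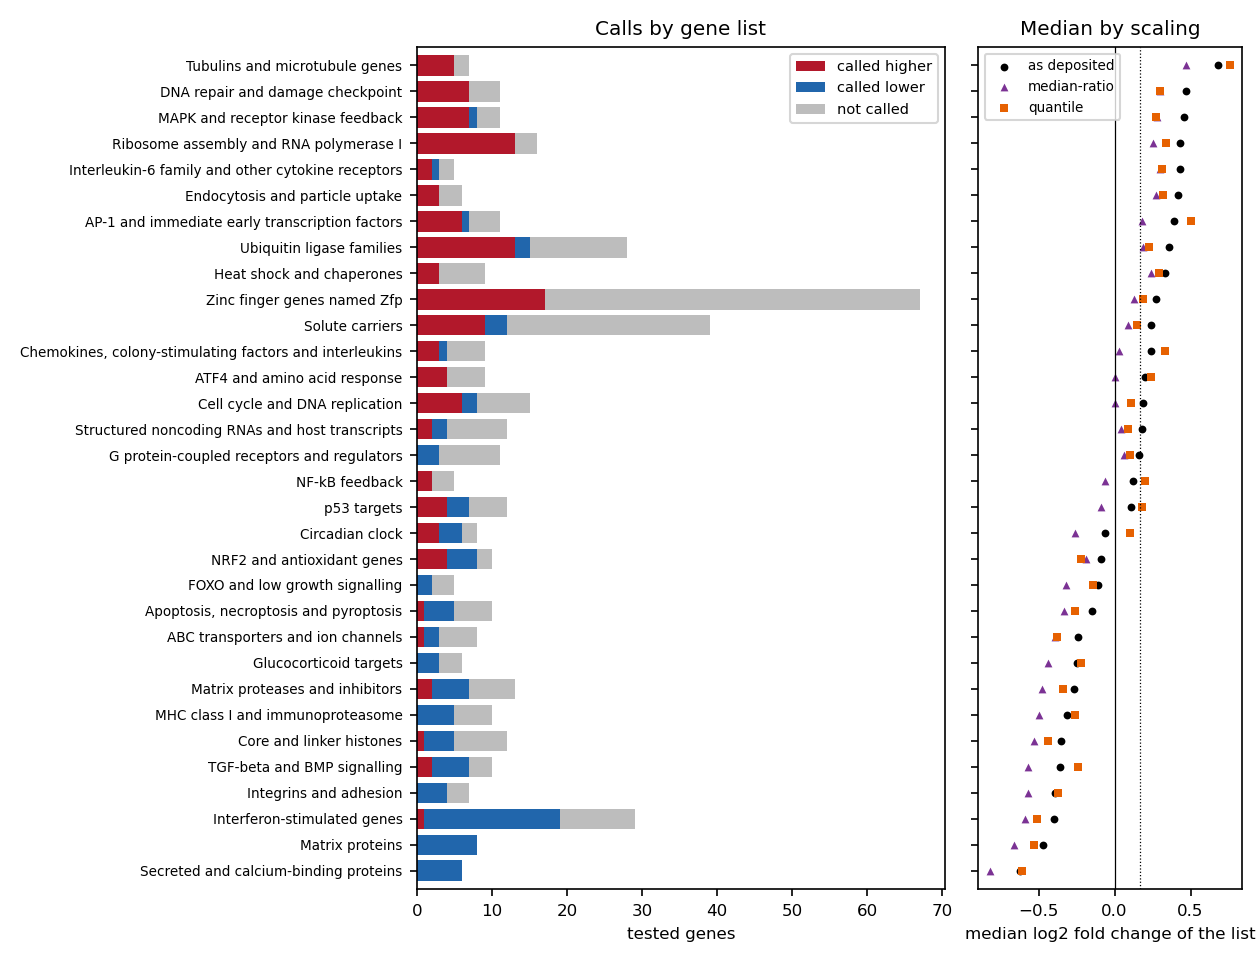
Left, number of tested genes called higher (red), called lower (blue) or not called (grey) in each gene list with at least 5 tested members, predicted genes and Rik clones aside; right, the median log2 fold change of each list as deposited (circles), under median-ratio scaling (triangles) and under quantile normalization (squares), with the median of all tested genes, 0.17, dotted. As deposited, tubulins, DNA repair and ERK feedback have the highest medians, and secreted or calcium-binding proteins, matrix proteins and interferon-stimulated genes the lowest.

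Predicted genes with Gm numbers, most of them without a known function, had 17 higher and 58 lower among 255 tested, with a median log2 fold change of -0.22; the numbers were 12 and 104 under median-ratio scaling, 13 and 87 under quantile normalization and 8 and 128 with the 9-library reference. Rik clones had 11 higher and 12 lower among 63 tested as deposited, but 7 and 22, 8 and 20, and 2 and 29 under the same scalings in that order. The limit on low values itself bore on some calls. Of the tested genes, 29 reached a value of 1 in the 3 MoS2 libraries and in no Control library, and 26 of them were called higher, while 21 reached it in the 3 Control libraries and in no MoS2 library, and 20 of them were called lower. A further 210 reached it in fewer than 3 of the 6 libraries and were tested because of the MoS2_NIR libraries, with 21 called higher and 0 lower. No gene appeared from nothing at an appreciable level: 33 genes were listed at 0 in the 3 Control libraries only, with a MoS2 mean of at most 0.297, and 10 in the 3 MoS2 libraries only, with a Control mean of at most 0.54.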

How the data were processed

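The authors deposited 1 table of scores, 1 per gene and library, standardized over the 9 libraries: 2391 of 2392 rows have mean 0 and population SD 1. Bowtie 0.12.9, Cufflinks 2.1.1, HTSeq and mm10 are named, without roles, per the submitters' processing notes. Since a score hides level and fold, a search was made for 9 values x in steps of 0.01 such that standardizing ln(x + 1) returns the scores within 1e-09. Solutions came for 2390 rows (99.92%), not for Gm10736, whose scores are all 0, nor Gm6507. A solution was accepted where under 0.001 were expected by chance. For Crocc2 and Aldh1a3 the level is known up to a whole-number factor. In simulated scores 299 of 300 genes came back right, and 1 came back with value + 1 too small by a whole-number factor. Of 60 random ones 0 were accepted, but their search stopped at lower values than that of the deposited scores. False acceptance at the highest levels was thus not tested.

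Genes reaching 1 in 3 or more libraries were tested (1747), and 641 were not. Log2 (value + 1) of all 9 libraries was fitted with limma 3.58.1 in R 4.3.3 (3 group means, 6 residual degrees of freedom, trend, robust), and p-values were adjusted over the 1747 genes after Benjamini and Hochberg. Log2 fold changes are on the log2 (value + 1) scale and understate changes of low genes; ratios are of the group means. On simulated data 51 of 100 genes changed by 0.5 and 95 of 100 changed by 1 (log2) were called, and 5.19% of calls were unchanged genes. The changed genes all had a mean Control log2 (value + 1) above 2, and no shift between libraries was simulated. Fewer genes were changed than were called in the data, so these shares need not hold for the calls reported. The main fit did not pair libraries by replicate number. Correlations of deviations between Control and MoS2 were -0.0544, 0.0988 and 0.0909 for equal numbers and -0.158 to 0.0778 for unequal ones. These values cannot exclude a pairing. Genes were named by largest change (12 per direction), highest level (3 per direction) and largest change within each of 47 lists (up to 4 per direction); 3 genes so chosen are not reported here. The comparison, the lists and the rule were chosen with earlier results of these data known, so list counts are descriptions. No genome or sequence of the mouse was used here. Alternatives were other pseudocounts, filters and scalings, 2 groups only, no trend or robust step, a replicate block, the deposited scores and leaving out each library.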

Additional observations from a re-analysis of the deposited data

How the results depend on the processing

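Counts of 525 genes higher and 293 lower stayed within 1.5 times under every alternative run except 2 scalings: median-ratio scaling gave 476 lower, and the added 9-library reference gave 162 higher and 569 lower. Leaving out single libraries gave 408 to 517 higher and 199 to 303 lower. The median log2 fold change of 0.166 moved by more than the spread of library medians (SD 0.073) under 7 of the 19 other settings. It was 0.038 after median-ratio scaling, 0.077 after quantile normalization, -0.086 with the 9-library reference, 0.258 and 0.066 with pseudocounts of 0.1 and 5, 0.037 without the filter and 0.277 with a filter of 5. Without single libraries it ran from 0.117 to 0.206. With the replicate block 503 genes were higher and 272 lower. Of 171 named genes called, none changed direction. Among uncalled named genes the log2 fold change of mt-Rnr1 (-0.014) turned to 0.068 under quantile normalization and that of Mtf1 (0.128) to -0.051, -0.056 and -0.223 with the median-ratio, quantile and 9-library scalings. Without single libraries mt-Rnr1 ran from -0.069 to 0.028, Rragd (-0.301) from -0.648 to 0.008 and Mtf1 from -0.003 to 0.272. The cause of these shifts was not tested. Depth is unknown, so what it limits could not be judged.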

Other observations

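The genes in this paragraph were picked after their values were seen, and no test of a group was made. Crabp2, a carrier of retinoic acid, fell from 3.48 ± 0.517 to 0.787 ± 0.382, and Dhrs3, a retinal reductase, from 8.02 ± 0.839 to 3.57 ± 0.488 (adjusted p = 0.000356 and 0.00148 by limma). The transfer RNA modification gene Trmt2a rose from 12.7 ± 1.13 to 25.6 ± 3.09, Trmt61a from 2.54 ± 0.600 to 5.31 ± 1.23 and Pus1 from 11.9 ± 1.24 to 19.7 ± 2.24 (adjusted p = 0.000359, 0.00468 and 0.00215 by limma). At high level, the RNA-binding protein gene Hnrnpab rose from 153 ± 21.8 to 267 ± 7.61, while Igfbp7, a secreted binding protein of growth factors, fell from 288 ± 12.5 to 186 ± 18.8 and Ptgs1, cyclooxygenase 1, from 151 ± 17.1 to 98.3 ± 8.3 (adjusted p = 0.000447, 0.00215 and 0.00244 by limma). In these 8 genes the groups did not overlap.

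Some predicted genes differed widely between libraries of 1 group. Gm28037 was at 9.7, 0 and 48.99 in MoS2, and the pseudogene Pgam1-ps2 at 98.23, 18.91 and 3.78. The median SD of a gene between libraries on the log2 scale was 0.174 in Control and 0.127 in MoS2.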
